A study of Homo sapiens with 12 samples.

Results

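HepG2 cells in which ARID1B had been targeted and which were then treated with sorafenib (KO sorafenib, 3 libraries) were compared with wild-type HepG2 cells that received only the vehicle (WT DMSO, 3 libraries). These are 6 of the 12 libraries of a study that crossed genotype with treatment. HepG2 is an established line of human liver cancer cells and still makes many hepatocyte proteins. Both groups are the same line. KO sorafenib cells were edited with CRISPR/Cas9 and exposed to 5 µM sorafenib for 48 h, and WT DMSO cells were unedited and received DMSO at 0.1% by volume, so they were vehicle-treated rather than untouched. How long the DMSO was given is not stated in the sample labels. The other groups, wild type with sorafenib (WT sorafenib) and ARID1B-KO with DMSO (KO DMSO), have 3 libraries each and are used here for the single changes. How many clones carried the knockout is not stated, so the edit and the history of a clone cannot be told apart. The design text calls the replicates biological. Messenger RNA was read in all libraries, and 12821 genes were tested.

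ARID1B is a subunit of the BAF chromatin remodelling complex, which uses ATP to move nucleosomes and so opens promoters and enhancers. It and its paralog ARID1A occupy the same position in the complex and exclude each other. Sorafenib inhibits RAF kinases and several growth factor receptors, among them those for VEGF and PDGF, and is used against liver cancer. RAF acts between RAS and the kinases MEK and ERK, and active ERK induces both growth genes and its own inhibitors, the Sprouty proteins and the DUSP phosphatases.

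The 3 WT DMSO libraries held 21823650 to 29398257 estimated counts and the 3 KO sorafenib libraries 20135596 to 27445013. Mitochondrial transcripts took 8.45% to 9.97% of counts in WT DMSO and 8.79% to 11.9% in KO sorafenib. All 14 hepatocyte markers were tested in both groups, with a summed level of 86014 to 95938 CPM (counts scaled to a common library size) in WT DMSO and 122556 to 190465 in KO sorafenib. ALB gave the largest part, at 31819 to 33870 CPM in WT DMSO and 66063 to 108029 CPM in KO sorafenib. Singly, 6 of the 14 markers were higher and 5 lower at an adjusted p under 0.05, and 3 did not pass. Over all tested genes 24.9% were higher and 26.5% lower. Of the defining markers of other cells, CFTR (cholangiocytes), COL1A2, DCN, POSTN and THY1 (fibroblasts), EMCN, ERG and KDR (endothelium) and HBB, MS4A1 and PTPRC (blood cells) had no counts in any of the 6 libraries. The summed level of the 8 cholangiocyte markers was 716 to 779 CPM in WT DMSO and 839.9 to 1234 in KO sorafenib. It was 39.6 to 47.8 and 70.8 to 86.0 CPM for the 10 fibroblast markers, and 1.198 to 2.17 and 7.01 to 10.6 CPM for the 8 endothelial markers. Only 2 fibroblast markers were tested, and they moved in opposite directions. ACTA2 was at 23.6 to 25.8 CPM in WT DMSO and 69.2 to 84.9 CPM in KO sorafenib. PDGFRB was at 13.5 to 21.5 CPM in WT DMSO and 0.790 to 1.47 CPM in KO sorafenib. The 10 blood cell markers summed to 3639 to 4049 CPM in WT DMSO and 489 to 625 in KO sorafenib, nearly all of it from LYZ, the lysozyme gene, which was picked out here after its values were seen. Whether the differences in these sums bear on the results was not tested. In such bulk libraries, fewer cells of a kind and less RNA per cell cannot be told apart.

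ARID1B itself (chr6:156776020-157210779, plus strand, GRCh38) measured 58.4, 61.9 and 66.7 CPM in WT DMSO and 35.6, 25.9 and 26.5 CPM in KO sorafenib. Its log2 fold change was -1.09 ± 0.11 (SE, here and below; adjusted p = 3.94e-06, by the quasi-likelihood test of edgeR, Benjamini-Hochberg adjusted over all genes, here and below). KO DMSO libraries held 26.4, 27.99 and 27.6 CPM, and the WT sorafenib libraries 67.5, 69.1 and 62.3 CPM. The knockout libraries thus kept polyadenylated ARID1B transcripts at a lower level, and the counts do not show what these transcripts encode. ARID1A, the paralog, was not called, at 0.08 ± 0.11 (adjusted p = 0.573).

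Many tested genes differed between the groups. At an adjusted p under 0.05, the threshold for calling a gene, 6595 of 12821 genes (51.4%) were called, 3192 higher (24.9%) and 3403 lower (26.5%) in KO sorafenib. Changes of over 2-fold were called for 1124 genes higher (8.77%) and 940 lower (7.33%), and changes of over 4-fold for 381 and 322. The 3 KO sorafenib libraries lay wholly above or wholly below the 3 WT DMSO libraries in 7432 genes (58%). Across all tested genes the median log2 fold change was -0.01, and the median size of a change was 0.41 on the log2 scale. Below, a value that follows "rose by" or stands in parentheses after a gene is its log2 fold change, and medians are of log2 fold changes. These shares are the background against which the counts below are to be read. Beside them, the knockout alone (KO DMSO against WT DMSO) gave 3563 calls (27.8%), and sorafenib alone (WT sorafenib against WT DMSO) gave 4543 (35.4%). All 3 comparisons share the WT DMSO libraries.

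**Figure D1:**
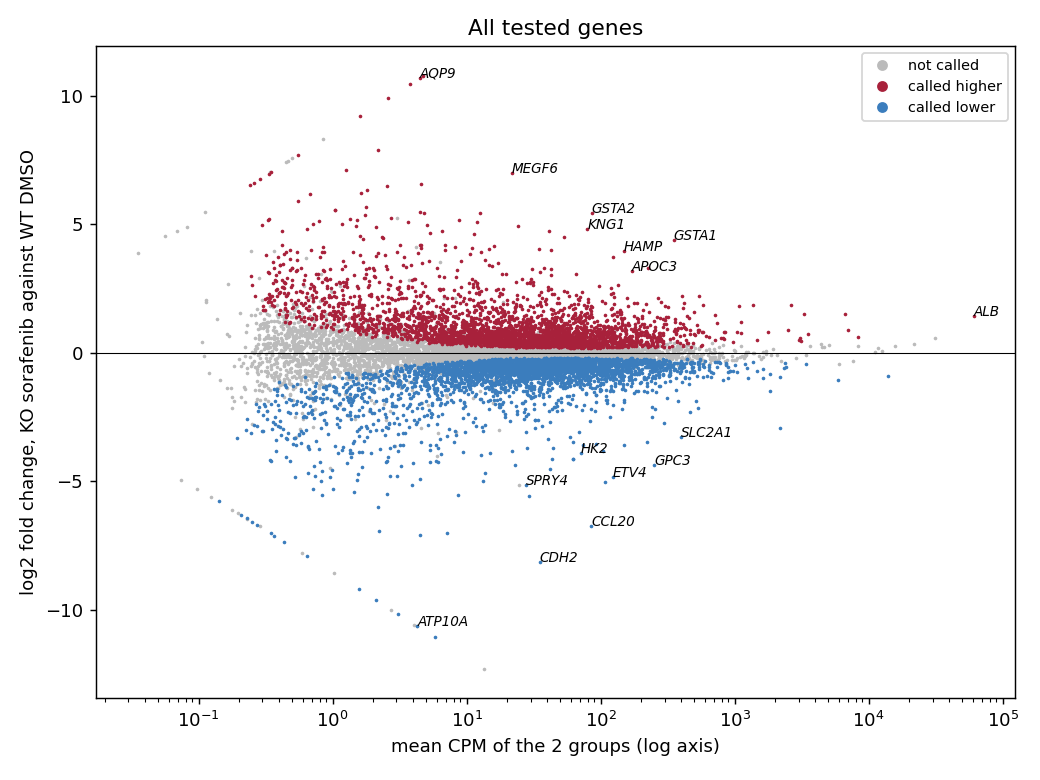
Log2 fold change of KO sorafenib against WT DMSO (vertical axis) for each of 12821 tested genes, by the mean CPM of both groups (horizontal log axis). Each point is a gene, called higher (red, 3192 genes), called lower (blue, 3403 genes) or not called (grey), and the diagonal lines of points at the left are genes with no counts in one group.

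The genes with the greatest rises were chosen by the size of their change, so their values are a description. MEGF6, a gene for a protein with EGF-like repeats (chr1:3487951-3611508, minus strand), measured 0.137, 0.562 and 0.337 CPM in WT DMSO and 44.8, 38.02 and 46.1 CPM in KO sorafenib, a log2 fold change of 7.02 ± 0.27. PLEK2, a relative of the platelet protein pleckstrin, measured 0.103, 0.0468 and 0.112 CPM in WT DMSO and 7.702, 10.2 and 9.18 CPM in KO sorafenib, or 6.57 ± 0.29. In both genes every KO sorafenib library stood many times above every WT DMSO library. AQP9, the hepatocyte channel for water and glycerol (chr15:58138169-58185911, plus strand), had no counts in WT DMSO and 10.6, 7.84 and 8.44 CPM in KO sorafenib, at least 231-fold higher with the absent group set to 3 counts in all. NEGR1, a neuronal adhesion molecule, went from no counts to 8.08, 8.07 and 6.47 CPM, at least 194-fold higher. AQP9 was higher still in KO DMSO, at 37.6, 29.3 and 19.7 CPM, and absent or at a trace in WT sorafenib. Further large rises were DAO, the peroxisomal D-amino acid oxidase (5.16 ± 0.21), the matrix gene COL26A1 (5.44 ± 0.26), MYRIP, which links melanosomes and granules to myosin (5.47 ± 0.36), RAPGEF4, an exchange factor activated by cyclic AMP (5.09 ± 0.56), and ENTPD8, a hepatic ectonucleotidase (5.23 ± 0.82). C14orf132 and RANBP3L rose by 6.49 ± 0.62 and 5.43 ± 0.41. PLEKHM1, with no counts in any DMSO library of either genotype, and the unnamed gene ENSG00000257411 also met the size rule. Their levels are uncertain, because counts can be divided between overlapping or near-identical copies.

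The genes with the greatest falls were likewise chosen by size. CDH2, which encodes N-cadherin (chr18:27932879-28177946, minus strand), measured 66.4, 72.8 and 71.4 CPM in WT DMSO and 0.547, 0.0917 and 0.0494 CPM in KO sorafenib, a log2 fold change of -8.15 ± 0.40 (adjusted p = 1.24e-08). CCL20, the chemokine that attracts cells through CCR6, measured 199, 157 and 148 CPM in WT DMSO and 1.26, 1.83 and 1.63 CPM in KO sorafenib, or -6.74 ± 0.21 (adjusted p = 2.34e-10). Neither gene had any overlap between the groups. ATP10A, a phospholipid flippase, went from 6.02, 8.33 and 11.4 CPM to no counts, at least 188-fold lower. EMILIN1, a glycoprotein of elastic fibres, measured 45.01, 61.7 and 64.4 CPM in WT DMSO and 1.43, 1.24 and 0.889 CPM in KO sorafenib (-5.57 ± 0.25). It was already low in KO DMSO, at 2.71, 2.61 and 1.49 CPM, whereas WT sorafenib held 41.5, 53.9 and 38.9 CPM. MEP1A (the protease meprin A), RTL8C, CLDN6 (a fetal claudin), PPP2R2C (a regulatory subunit of the phosphatase PP2A) and DTNA (dystrobrevin) fell (-7.07, -7.01, -5.00, -5.15 and -4.91). The size rule also took ZBTB12, WDR46 and the ribosomal pseudogene RPS27P4. ZBTB12 was at 0 in 1 KO DMSO library and WDR46 at 0 in 2 WT sorafenib libraries, while the other libraries of the same group held several CPM. WDR46 was called at an adjusted p of 0.0308 and missed the threshold without any one of the 6 libraries (0.0506 to 0.0889), so these levels are uncertain.

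**Figure D2:**
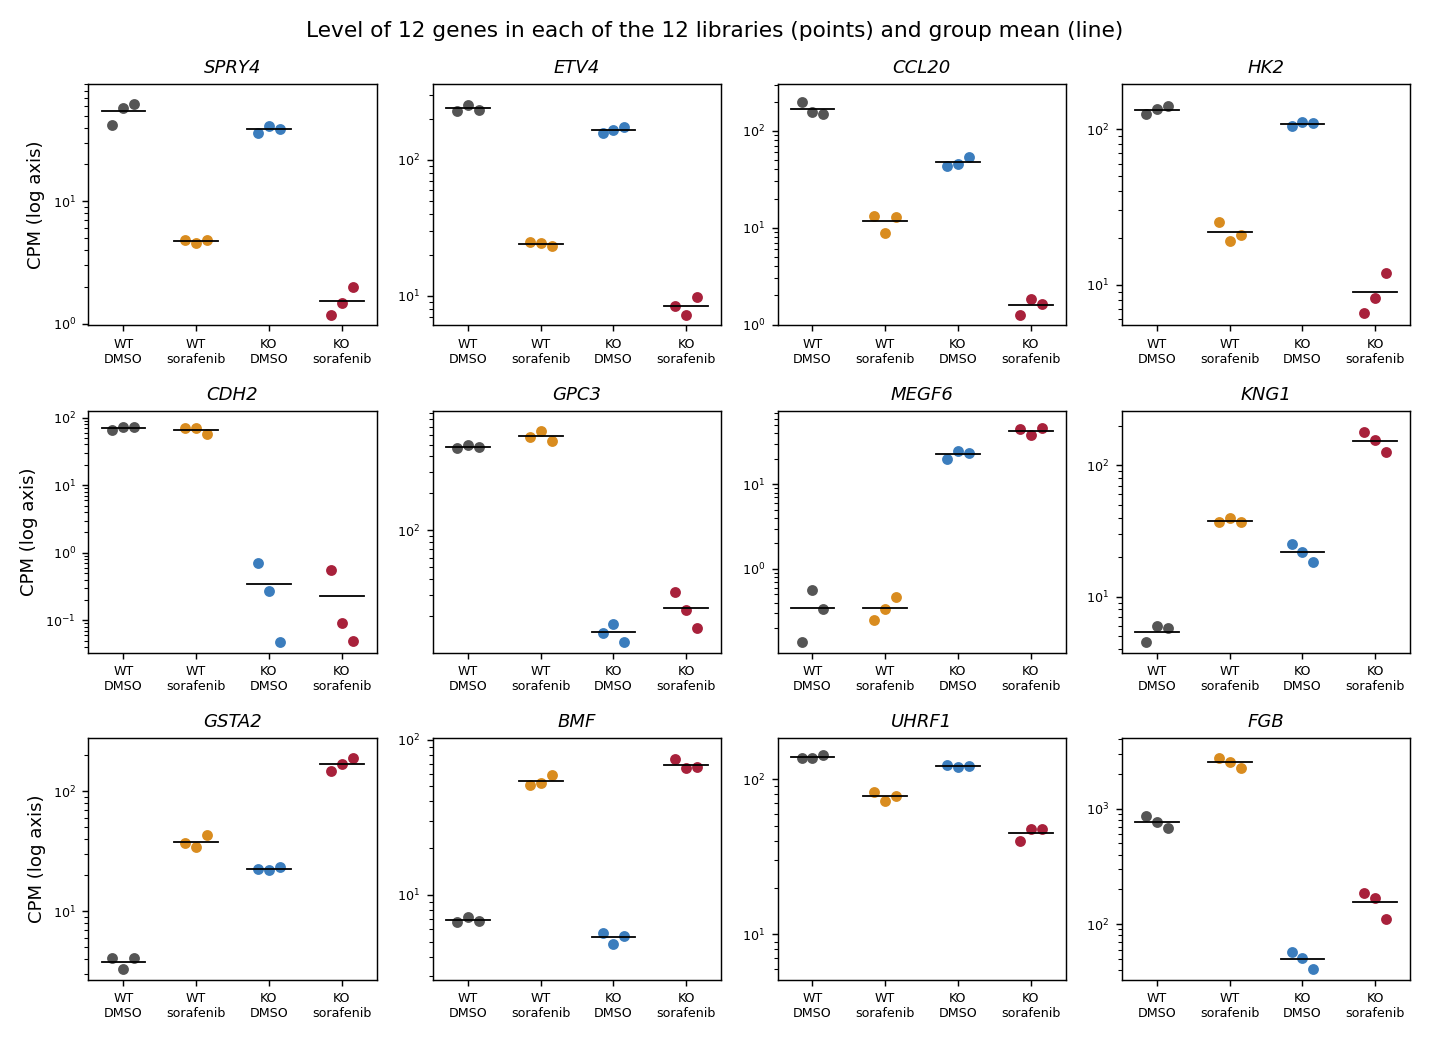
CPM (vertical log axes, which differ between panels) of 12 genes in each of the 12 libraries, by group (horizontal axis); points are libraries and lines are group means. In KO sorafenib, CDH2 lies between 0.0494 and 0.547 CPM, like KO DMSO, whereas CCL20 lies between 1.26 and 1.83 CPM, below all 9 libraries of the other groups.

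The output of the RAS-ERK pathway was lower in KO sorafenib. Of 18 tested genes that ERK induces, 15 fell and 2 rose, with a median log2 fold change of -2.19, against -0.58 in the knockout alone and -1.15 with sorafenib alone. The 2 that rose were CCND1, the gene for cyclin D1 (0.48 ± 0.09), and PHLDA1 (0.67), the latter picked out after its values were seen. ETV4, an ETS factor induced by ERK, measured 230.2, 253 and 233 CPM in WT DMSO and 8.33, 7.200 and 9.68 CPM in KO sorafenib, a log2 fold change of -4.83 ± 0.11 (adjusted p = 2.57e-11). Its relative ETV5 measured 81.9, 85.1 and 80.2 CPM in WT DMSO and 6.82, 5.64 and 6.52 CPM in KO sorafenib, or -3.70 ± 0.09. SPRY4, a feedback inhibitor of receptor signalling, measured 41.7, 58.1 and 62.4 CPM in WT DMSO and 1.18, 1.47 and 1.98 CPM in KO sorafenib, or -5.14 ± 0.19. In each of these genes the lowest WT DMSO library was at least several times the highest KO sorafenib library. DUSP6, the phosphatase that switches ERK off, went from 126, 111 and 118 CPM to 8.04, 4.63 and 7.36 CPM (-4.15 ± 0.17). SPRED2, an inhibitor of RAS activation, fell (-2.09 ± 0.08).

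The kinases and receptors upstream changed in both directions. The share called was 47.1% of the kinase list and 64.3% of the receptor list, against 51.4% of all tested genes. Among 17 genes for RAS, RAF, MEK, ERK and their regulators, 5 were higher (3 with the length offset, an alternative fit that allows for the mean transcript length of each gene in each library) and 3 lower, with a median of -0.06. MAPK3, which encodes ERK1, measured 48.3, 47.9 and 48.3 CPM in WT DMSO and 102, 109.8 and 96.9 CPM in KO sorafenib (1.10 ± 0.07). BRAF and SOS1 rose by 0.47 and 0.55, and SOS2 by 0.50 ± 0.09 (0.315 and not called, adjusted p = 0.0925, with the length offset). PTPN11, the phosphatase SHP2 that relays receptor signals to RAS, fell (-0.84 ± 0.08). NF1, which turns RAS off, fell (-0.58 ± 0.08), and MAP2K1 (MEK1) (-0.26). Of 14 growth factor receptor kinases, 4 rose (2 with the length offset) and 5 fell. EGFR measured 43.6, 52.9 and 62.8 CPM in WT DMSO and 239, 203 and 155 CPM in KO sorafenib (1.91 ± 0.19), and FGFR3 rose by 0.86 ± 0.11 (0.30 and not called, adjusted p = 0.13, with the length offset). PDGFRB, a target of sorafenib, measured 13.5, 17.9 and 21.5 CPM in WT DMSO and 1.47, 1.33 and 0.7901 CPM in KO sorafenib (-3.87 ± 0.30), and FGFR1 fell (-1.68 ± 0.15). MERTK and MST1R rose by 0.95 and 1.46, while ERBB3, MET and AXL fell (-0.85, -0.77 and -2.76). In this paragraph BRAF, SOS1, MAP2K1, MERTK, MST1R, ERBB3, MET and AXL were picked out after their values were seen, for the counts.

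Genes of the replication machinery fell together, whereas most mitotic genes were not called. Of 40 tested replication genes, 34 fell and only TYMS rose (0.25, picked out after its value was seen; it lost its call in 4 of 6 fits that left out a library). The median was -0.68, against -0.03 in the knockout alone and -0.36 with sorafenib alone. UHRF1, which carries DNA methylation through replication, measured 138, 137 and 144 CPM in WT DMSO and 39.8, 47.5 and 47.4 CPM in KO sorafenib (-1.63 ± 0.09; adjusted p = 9.07e-09). MCM7, part of the replicative helicase, measured 221, 214 and 228 CPM in WT DMSO and 92.7, 97.5 and 97.7 CPM in KO sorafenib (-1.20 ± 0.08). POLA1, the catalytic subunit of the polymerase that primes DNA, fell (-1.15 ± 0.08), and E2F1, the factor that induces S-phase genes (-1.18 ± 0.09). The groups did not overlap in any of these 4 genes. Of 32 mitosis and spindle genes, 7 fell, 3 rose and 22 were not called, with a median of -0.16. ECT2, needed for cytokinesis, fell (-0.72 ± 0.09) and the spindle motor KIF11 (-0.39 ± 0.09; -0.28 and not called, adjusted p = 0.0781, with the length offset). CDC25C, the phosphatase that starts mitosis, rose by 0.79 ± 0.14, KIF20A by 0.40 ± 0.10, and NUSAP1, picked out after its value was seen, by 0.45.

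The promoter of UHRF1 is shown as an example of the replication group, since E2F sites are a known feature of such promoters. UHRF1 was taken as the called replication gene with the smallest adjusted p whose promoter held an E2F match. That it holds a match thus follows from the choice. The sequence is from RefSeq (GRCh38.p14), the 250 bases before the start, 5′ to 3′ (chr19:4909251-4909500, plus strand), with matches to the E2F motif TTTNNCGC on either strand in capitals.
UHRF1: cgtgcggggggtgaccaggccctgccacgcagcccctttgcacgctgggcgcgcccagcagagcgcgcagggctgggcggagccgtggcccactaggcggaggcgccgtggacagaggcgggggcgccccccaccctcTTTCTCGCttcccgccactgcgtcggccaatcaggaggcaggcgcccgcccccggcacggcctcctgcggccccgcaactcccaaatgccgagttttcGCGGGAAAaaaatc
The motif matched at 112 and 14 bases before the start. Of 35 replication genes with a promoter in the table, 16 (45.7%) held a match, against 9.13% of 9856 tested genes and 5.93% of all 27305 promoters of this length. Among genes called lower, 9.46% held one, and among genes called higher, 7.01%. A match is a description of the letters and not a site shown to be bound.

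At the G1 stage, 4 of 17 cyclin, kinase and inhibitor genes rose and 7 fell. CDKN1A, the p21 inhibitor of cyclin-dependent kinases, measured 41.2, 41.9 and 45.2 CPM in WT DMSO and 116, 119 and 106 CPM in KO sorafenib (1.41 ± 0.10). CDKN2A and CDKN2C, also inhibitors, rose by 1.38 and 0.34 and were picked out after their values were seen. The cyclin gene CCND1, named above, rose too. It measured 183, 206 and 213 CPM in WT DMSO and 281, 281 and 278 CPM in KO sorafenib. CCND3 fell (-1.46 ± 0.14), CCNE2 (-1.32 ± 0.21) and CDK2 (-0.58 ± 0.09; not called with the length offset, at -0.43 and adjusted p = 0.159). Targets of p53 rose in 20 of 28 genes and fell in 4, with a median of 0.78. Besides CDKN1A these included the antiproliferative gene BTG2 (2.17 ± 0.12), CCNG2 (1.89 ± 0.12) and SESN1, a stress-induced inhibitor of mTORC1 (1.46 ± 0.10). Those that fell, picked out after their values were seen, were GDF15 (-1.46), AEN (-0.40), PLK2 (-0.62) and PLK3 (-0.76).

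In the BCL2 family, 3 of 13 genes rose and 4 fell. BMF, which encodes a BH3-only protein that promotes apoptosis, measured 6.71, 7.26 and 6.82 CPM in WT DMSO and 74.5, 65.9 and 66.9 CPM in KO sorafenib (3.32 ± 0.10; adjusted p = 1.48e-10). Every KO sorafenib library lay far above every control. BBC3, the p53-induced activator PUMA, rose by 1.34 ± 0.14, and BOK, an effector, by 0.64 ± 0.08 (0.28 and not called, adjusted p = 0.684, with the length offset). BCL2L1, which encodes the survival protein BCL-XL, measured 277, 272 and 299 CPM in WT DMSO and 149, 134 and 139 CPM in KO sorafenib (-1.01 ± 0.08). The other members that fell were BCL2 (-3.13), BID (-1.10) and MCL1 (-0.32), picked out after their values were seen. BCL2 was low in both groups, at 0.856, 0.702 and 0.974 CPM in WT DMSO and 0, 0.183 and 0.0988 CPM in KO sorafenib.

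Genes of protein synthesis and folding were mostly lower. Of 24 MYC-responsive and ribosome biogenesis genes, 23 fell and none rose, with a median of -0.91. The median was -0.79 with sorafenib alone and 0.07 in the knockout alone. BOP1, a factor for the large ribosomal subunit, measured 91.6, 89.7 and 93.9 CPM in WT DMSO and 22.3, 25.2 and 23.01 CPM in KO sorafenib (-1.96 ± 0.09). DDX21, NOLC1 and RRS1, further nucleolar factors, fell (-1.57 ± 0.08, -1.48 ± 0.08 and -1.35 ± 0.09). Among 38 genes of the ATF4 and amino acid response, 25 fell and 8 rose, with a median of -0.72. ASNS, which makes asparagine, measured 61.95, 79.7 and 75.8 CPM in WT DMSO and 11.2, 11.2 and 11.6 CPM in KO sorafenib (-2.68 ± 0.12), and the mitochondrial folate enzyme MTHFD2 measured 190.4, 163 and 159 CPM in WT DMSO and 43.3, 49.5 and 51.5 CPM in KO sorafenib (-1.83 ± 0.10). STC2, a secreted glycoprotein, and XPOT, the tRNA exporter, fell (-2.19 ± 0.12 and -1.40 ± 0.08).

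None of 28 genes for endoplasmic reticulum chaperones and the unfolded protein response rose and 22 fell (median -0.55). SDF2L1, a chaperone partner, fell (-1.46 ± 0.12). XBP1, the transcription factor of that response, measured 337, 349 and 369 CPM in WT DMSO and 207, 217 and 156 CPM in KO sorafenib (-0.86 ± 0.12), DNAJB11 fell (-0.85 ± 0.12) and SEC24D, a coat protein of export vesicles (-0.91 ± 0.09). Of 17 heat shock genes, 12 fell and none rose (6 and none with the length offset), among them the co-chaperones FKBP4 (-1.11 ± 0.08), CHORDC1 (-0.91 ± 0.11) and STIP1 (-0.56 ± 0.07), and HSP90AB1 (-0.60 ± 0.10). In the knockout alone the heat shock genes had a median of 0.23, with 7 called higher and none lower, against 14.3% and 13.5% of all tested genes.

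Alpha-class glutathione transferases, which conjugate glutathione to toxins in the liver, gave some of the largest rises. GSTA1 measured 36.7, 30.3 and 27.8 CPM in WT DMSO and 577, 699.7 and 737 CPM in KO sorafenib (4.41 ± 0.15; adjusted p = 2.76e-10). GSTA2 measured 4.07, 3.28 and 4.05 CPM in WT DMSO and 147, 169 and 189 CPM in KO sorafenib (5.46 ± 0.14; adjusted p = 2.69e-11), a 43.9-fold rise. Both were intermediate after either single change: GSTA2 held 22.4, 22.1 and 23.3 CPM in KO DMSO and 36.6, 34.4 and 42.9 CPM in WT sorafenib, and the 4 groups did not overlap. The genes are near-identical neighbours on chromosome 6, so how the reads were divided between them is uncertain. Their promoters are printed because both genes rose and because HNF1, a hepatocyte factor, is known to act on genes of this class. They are the 250 bases before each RefSeq start in GRCh38.p14, at chr6:52803817-52804066, minus strand, for GSTA1 and at chr6:52763476-52763725, minus strand, for GSTA2. Capitals mark the HNF1 core GTTAAT on either strand.
GSTA1: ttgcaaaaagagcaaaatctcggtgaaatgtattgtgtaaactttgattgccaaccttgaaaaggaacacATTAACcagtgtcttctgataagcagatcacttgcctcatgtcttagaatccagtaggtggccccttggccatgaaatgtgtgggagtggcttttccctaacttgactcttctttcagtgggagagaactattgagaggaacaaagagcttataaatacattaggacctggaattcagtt
GSTA2: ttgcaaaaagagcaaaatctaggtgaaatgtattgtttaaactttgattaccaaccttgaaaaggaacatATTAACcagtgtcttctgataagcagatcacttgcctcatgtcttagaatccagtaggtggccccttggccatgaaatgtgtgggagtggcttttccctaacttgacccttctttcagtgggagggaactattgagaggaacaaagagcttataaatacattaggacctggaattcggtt
The sequences differed at 7 of 250 bases, and each held 1 match, beginning 180 bases before the start. The HNF1 core was in 3.47% of the promoters of tested genes, 4.73% of those called higher and 3.03% of those called lower.

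Across all 26 tested UGT, SULT and GST genes, 11 rose and 7 fell, with a median of -0.11. SULT2A1, which sulfates bile acids and DHEA, rose by 1.78 ± 0.12, and UGT2B11, a glucuronosyltransferase, fell (-3.05 ± 0.16). Of 12 drug-metabolising cytochrome P450 genes, 8 rose and 2 fell, with a median of 1.71. CYP3A7, the fetal form of the main drug-oxidising enzyme, measured 3.73, 3.93 and 4.38 CPM in WT DMSO and 17.5, 19.5 and 14.96 CPM in KO sorafenib (2.11 ± 0.14), although its paralogs can share reads. The fatty acid hydroxylases CYP4F2, CYP4F3 and CYP4F12, also paralogs of each other, rose by 2.50 ± 0.21, 2.12 ± 0.12 and 1.88 ± 0.09. The 2 that fell, picked out after their values were seen, were CYP1A1 (-2.04) and CYP2J2 (-1.44).

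Uptake transporters rose in 8 of 11 genes, and SLCO4A1 alone fell (-0.55, picked out after its value was seen). SLC22A7, an organic anion transporter of hepatocytes, measured 3.42, 3.75 and 4.95 CPM in WT DMSO and 75.6, 70.3 and 51.7 CPM in KO sorafenib (4.03 ± 0.19). SLCO2B1 rose by 2.28 ± 0.15, SLCO4C1 by 1.22 ± 0.17 and the efflux antiporter SLC47A1 by 0.99 ± 0.14. Of 14 ABC pump genes and relatives, 7 rose and 4 fell (2 with the length offset). The multidrug pump gene ABCB1 measured 108, 136 and 142 CPM in WT DMSO and 77.9, 66.5 and 47.8 CPM in KO sorafenib (-1.01 ± 0.18), and ABCG2 measured 23.4, 25.2 and 22.7 CPM in WT DMSO and 11.2, 10.5 and 9.18 CPM in KO sorafenib (-1.21 ± 0.15). ABCC1 fell (-0.75 ± 0.15; -0.60 and not called, adjusted p = 0.064, with the length offset), and ABCC4, picked out after its value was seen (-0.52). The sterol exporters ABCG5 and ABCG8 rose by 2.14 ± 0.18 and 1.75 ± 0.16, and the vault protein MVP by 1.22 ± 0.13.

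Oxidative stress genes moved in both directions. Among 23 NRF2 targets, 7 rose and 7 fell (4 with the length offset). HMOX1, which breaks down haem, measured 21.7, 19.6 and 19.7 CPM in WT DMSO and 71.7, 84.8 and 75.5 CPM in KO sorafenib (1.93 ± 0.09). SLC7A11, the cystine transporter that supplies glutathione synthesis, measured 78.9, 91.3 and 85.2 CPM in WT DMSO and 17.8, 20.8 and 15.9 CPM in KO sorafenib (-2.23 ± 0.14). AKR1C1 rose by 1.85 ± 0.12 while its close paralog AKR1C2 fell (-1.45 ± 0.10), and shared reads make the split between them uncertain. Of 16 ferroptosis genes, 5 rose and 7 fell. Besides HMOX1, those that rose were GPX4, which reduces lipid peroxides (0.44), GCH1 (0.58), LPCAT3 (0.73) and FTH1, the ferritin heavy chain (0.81), named after their values were seen. SAT1, an enzyme of polyamine breakdown, fell (-1.45 ± 0.12) and the ferritin receptor NCOA4 (-0.57 ± 0.09). All 3 metallothioneins called of 5 tested were lower: MT2A (-2.19 ± 0.27), MT1X (-2.27 ± 0.32) and MT1E (-1.96 ± 0.36).

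Genes for blood proteins made by hepatocytes were more often higher than lower. Albumin mRNA (ALB) took 3.16%, 3.32% and 3.20% of the counts of the WT DMSO libraries and 9.35%, 8.67% and 6.64% of those of KO sorafenib, a log2 fold change of 1.45 ± 0.19 (adjusted p = 3.2e-05). Of 28 secreted proteins, 13 rose and 7 fell (median 0.28). APOC3, an apolipoprotein that slows the clearance of triglycerides, measured 39.02, 32.6 and 30.7 CPM in WT DMSO and 323, 291 and 308 CPM in KO sorafenib (3.17 ± 0.10). APOA5 and SERPINA6, the cortisol carrier, rose by 2.65 ± 0.17 and 2.21 ± 0.16, while the acute-phase inhibitor SERPINA3 measured 505, 526 and 521 CPM in WT DMSO and 95.3, 82.7 and 53.1 CPM in KO sorafenib (-2.75 ± 0.20). Of 36 complement and coagulation genes, 23 rose and 5 fell (3 with the length offset or with only the 6 libraries in the fit), with a median of 0.79. KNG1, which encodes kininogen, measured 4.52, 5.95 and 5.73 CPM in WT DMSO and 179.8, 155 and 126 CPM in KO sorafenib (4.84 ± 0.17). Its protease KLKB1 measured 0.582, 0.281 and 0.487 CPM in WT DMSO and 9.68, 7.704 and 7.999 CPM in KO sorafenib (4.19 ± 0.27), and SERPINC1, antithrombin, rose by 2.23 ± 0.13. PLG, plasminogen, measured 21.3, 18.8 and 17.4 CPM in WT DMSO and 3.37, 2.29 and 3.31 CPM in KO sorafenib (-2.68 ± 0.14). F13B, MBL2 and C5 also fell (-0.77, -1.46 and -0.55) and were picked out after their values were seen.

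The 3 fibrinogen genes lie side by side on chromosome 4 and encode the chains of a single protein, and their combined changes were of different size and sign. FGA, the alpha chain, measured 1777, 1711 and 1592 CPM in WT DMSO and 1653, 1542 and 1151 CPM in KO sorafenib, and the groups overlapped (-0.23 ± 0.15; adjusted p = 0.242). FGB, the beta chain, measured 865, 773 and 682 CPM in WT DMSO and 185, 168 and 111 CPM in KO sorafenib, with no overlap (-2.32 ± 0.19; adjusted p = 5.05e-07). FGG, the gamma chain, measured 2607, 2598 and 2186 CPM in WT DMSO and 4173, 4092 and 2765 CPM in KO sorafenib (0.58 ± 0.17; adjusted p = 0.0114). The call of FGG was lost without WT DMSO replicate 3 (0.50; adjusted p = 0.0513) and without KO sorafenib replicate 2 (0.49; adjusted p = 0.0534). All 3 fell in the knockout alone (-1.73, -3.95 and -1.25) and rose with sorafenib alone, by 1.66, 1.71 and 1.64. Their promoters are printed so that the 3 neighbours can be set side by side. They are the 250 bases before the RefSeq starts in GRCh38.p14, at chr4:154590743-154590992, minus strand (FGA), chr4:154562730-154562979, plus strand (FGB) and chr4:154612657-154612906, minus strand (FGG), with GTTAAT on either strand in capitals.
FGA: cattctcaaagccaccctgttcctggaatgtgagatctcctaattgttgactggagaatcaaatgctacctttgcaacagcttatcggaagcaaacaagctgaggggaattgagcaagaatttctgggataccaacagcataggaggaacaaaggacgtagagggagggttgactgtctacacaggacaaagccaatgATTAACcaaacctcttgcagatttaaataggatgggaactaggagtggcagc
FGB: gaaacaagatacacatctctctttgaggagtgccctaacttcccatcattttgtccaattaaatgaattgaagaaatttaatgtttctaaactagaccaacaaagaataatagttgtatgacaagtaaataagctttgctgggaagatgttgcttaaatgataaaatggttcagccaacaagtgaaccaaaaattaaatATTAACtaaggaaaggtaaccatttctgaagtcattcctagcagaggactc
FGG: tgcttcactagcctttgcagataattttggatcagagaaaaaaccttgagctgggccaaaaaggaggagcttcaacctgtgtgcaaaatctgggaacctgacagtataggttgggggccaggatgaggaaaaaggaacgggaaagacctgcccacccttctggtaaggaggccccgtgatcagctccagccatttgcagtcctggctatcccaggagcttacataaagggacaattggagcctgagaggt
The HNF1 core began 52 bases before the start of FGA and 51 before that of FGB, and these letters did not occur in the FGG window. Of 28 complement and coagulation promoters in the table, 7 (25%) held the HNF1 core.

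Liver transcription factors rose in 11 of 22 genes and fell in 6. CEBPA, a factor of hepatocyte identity, measured 152, 146 and 148 CPM in WT DMSO and 360.3, 351 and 343 CPM in KO sorafenib (1.24 ± 0.07). NR1H4, the bile acid receptor FXR, and RXRA, its partner, rose by 1.23 ± 0.12 and 0.99 ± 0.10. NR0B2, the corepressor SHP that FXR induces, measured 64.6, 65.7 and 61.00 CPM in WT DMSO and 9.17, 8.71 and 8.84 CPM in KO sorafenib (-2.84 ± 0.09). In bile acid synthesis and transport, 8 of 15 genes rose and 3 fell. CYP7A1, which controls the first step from cholesterol to bile acids, measured 1.16, 1.22 and 1.27 CPM in WT DMSO and 9.85, 8.62 and 5.78 CPM in KO sorafenib (2.73 ± 0.19), below the 20.1, 19.9 and 19.2 CPM of WT sorafenib. CYP27A1, of the alternative route, rose by 1.38 ± 0.11. SLC51B, a chain of the basolateral bile acid exporter, fell (-1.52 ± 0.16), and SLC27A5, picked out after its value was seen (-0.79).

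Cholesterol synthesis rose almost throughout: 21 of 24 tested genes were higher and none lower (1 lower without KO sorafenib replicate 1), with a median of 0.89. The medians were 0.53 in the knockout alone, with 15 genes higher, and 0.59 with sorafenib alone, with 20 higher, against 14.3% and 17.5% of all tested genes called higher. MVK, mevalonate kinase, measured 36.4, 36.7 and 33.5 CPM in WT DMSO and 104, 113 and 101 CPM in KO sorafenib (1.58 ± 0.11), and MVD, farther along, measured 119, 121 and 109.7 CPM in WT DMSO and 270.4, 268 and 262 CPM in KO sorafenib (1.19 ± 0.08). MSMO1 and EBP, of the sterol part of the pathway, rose by 1.59 ± 0.13 and 1.16 ± 0.10. The promoter of MVD is printed for its CCAAT boxes, bound by NF-Y, a known partner of the sterol factor SREBP. MVD was taken as the called gene of this list with the smallest adjusted p whose promoter held CCAAT. It is the 250 bases before the RefSeq start (chr16:88663092-88663341, minus strand, GRCh38.p14), with CCAAT on either strand in capitals.
MVD: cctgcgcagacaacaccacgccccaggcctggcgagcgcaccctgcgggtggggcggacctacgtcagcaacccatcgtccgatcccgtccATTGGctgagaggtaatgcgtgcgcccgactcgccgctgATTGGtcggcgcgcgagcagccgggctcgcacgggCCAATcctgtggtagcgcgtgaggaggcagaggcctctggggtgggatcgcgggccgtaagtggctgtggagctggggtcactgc
The boxes began 159, 120 and 85 bases before the start. Of 17 cholesterol synthesis promoters, 14 (82.4%) held CCAAT, against 35.6% of tested genes, 38.5% of those called higher and 33.4% of those called lower. The sterol element TCACNCCAC was in 1 of the 17 (5.88%) and in 0.832% of tested genes.

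Fat and sugar metabolism changed in different directions. Of 19 fatty acid synthesis genes, 10 rose, and ELOVL6, an elongase picked out after its value was seen, fell (-0.64). ACSS2, which makes acetyl-CoA from acetate, measured 59.4, 63.01 and 54.4 CPM in WT DMSO and 248, 266 and 253 CPM in KO sorafenib (2.12 ± 0.08), and DGAT2, the last step of triglyceride synthesis, rose by 1.94 ± 0.16. GPAM rose by 0.73 ± 0.08 and ACACB by 1.34 ± 0.14 (0.57 and not called, adjusted p = 0.0796, with the length offset). The number that fell was 3 without WT DMSO replicate 1 or KO sorafenib replicate 1. Of 22 PPARA targets, 14 rose and 2 fell, namely CPT2 (-0.22) and ACADVL (-0.57), both picked out after their values were seen. The number that fell was 1 without WT DMSO replicate 1 or 3 or KO sorafenib replicate 1 or 2. CREB3L3, a hepatic factor of the fasting response, measured 11.6, 12.7 and 11.2 CPM in WT DMSO and 83.1, 66.2 and 58.8 CPM in KO sorafenib (2.55 ± 0.13), and ACOT1 and ACAA1 rose by 1.21 ± 0.10 and 1.11 ± 0.09.

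Glycolysis and hypoxia genes fell in 15 of 28 cases and rose in 4. HK2, the hexokinase of tumours, measured 126, 136 and 141 CPM in WT DMSO and 6.61, 8.25 and 11.9 CPM in KO sorafenib (-3.92 ± 0.17; adjusted p = 2.95e-09). SLC2A1, the glucose transporter GLUT1, measured 539.6, 754 and 875 CPM in WT DMSO and 90.3, 76.4 and 54.6 CPM in KO sorafenib (-3.29 ± 0.22). Every KO sorafenib library lay far under the lowest control in both genes. NDRG1 measured 31.7, 23.8 and 26.1 CPM in WT DMSO and 168, 144 and 189.5 CPM in KO sorafenib (2.62 ± 0.13), and PFKFB4, which makes the activator of phosphofructokinase, rose by 1.65 ± 0.12. PFKFB3 and PFKL also rose, by 2.12 and 0.49, and were picked out after their values were seen. In gluconeogenesis and the urea cycle, 11 of 15 genes rose, with a median of 0.97. PCK1, the gatekeeper of gluconeogenesis, measured 4.65, 3.93 and 4.42 CPM in WT DMSO and 17.1, 15.2 and 21.3 CPM in KO sorafenib (2.04 ± 0.17), CPS1 and ASS1 of the urea cycle rose by 1.28 ± 0.11 and 1.33 ± 0.10, and GLUL, glutamine synthetase, by 1.46 ± 0.08. ASL and SLC25A15 fell (-0.38 and -0.35), both picked out after their values were seen, and only 1 of these calls was left without WT DMSO replicate 2 or 3 or KO sorafenib replicate 1.

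Of 17 oncofetal and progenitor genes, 7 fell, 4 rose and 6 were not called, with a median of 0.05. GPC3, an oncofetal proteoglycan used as a marker of liver cancer (chrX:133535745-133987100, minus strand), measured 466, 497 and 481 CPM in WT DMSO and 31.4, 22.3 and 16.00 CPM in KO sorafenib (-4.37 ± 0.21; adjusted p = 6.58e-09). KO DMSO held 14.7, 17.2 and 12.3 CPM and WT sorafenib 571, 643 and 537 CPM. AFP, the other main oncofetal marker, was not called (0.33 ± 0.15; adjusted p = 0.0912). It was called by DESeq2 (0.34; adjusted p = 0.00915), with the length offset (0.49; adjusted p = 0.00757) and without KO sorafenib replicate 3 (0.45; adjusted p = 0.016). Among those that fell were LIN28B (-1.20 ± 0.07) and HMGA2 (-1.17 ± 0.10), which are active in fetal tissue. CD24 rose by 2.11 ± 0.14, and DLK1, IGF2 and PEG10, picked out after their values were seen, by 1.88, 0.49 and 0.45.

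Among 21 adhesion and mesenchymal genes, 5 rose and 9 fell. CDH1, which encodes E-cadherin, measured 4.69, 4.59 and 2.25 CPM in WT DMSO and 11.1, 6.83 and 5.97 CPM in KO sorafenib (1.06 ± 0.36; adjusted p = 0.0262). This call was lost without WT DMSO replicate 3 (0.78; adjusted p = 0.0972), without KO sorafenib replicate 1 (0.74; adjusted p = 0.128) and with the length offset (1.17; adjusted p = 0.313). L1CAM, a neural adhesion molecule, measured 6.95, 11.7 and 11.99 CPM in WT DMSO and 0.505, 0.825 and 0.247 CPM in KO sorafenib (-4.26 ± 0.38), while NRCAM measured 1.095, 1.54 and 1.01 CPM in WT DMSO and 23.3, 21.3 and 17.4 CPM in KO sorafenib (4.10 ± 0.19). TWIST2, a mesenchymal factor, went from no counts to 3.704, 2.57 and 3.41 CPM, at least 83.1-fold higher, and SNAI2 and TGFBI, picked out after their values were seen, rose by 4.90 and 1.17. Of 22 matrix genes, 11 rose (7 with the length offset) and 7 fell. COL2A1, the collagen of cartilage, measured 14.5, 18.4 and 19.1 CPM in WT DMSO and 269, 239.7 and 179 CPM in KO sorafenib (3.73 ± 0.18), COL6A1 rose by 1.99 ± 0.20, and TIMP1, an inhibitor of matrix proteases, measured 19.99, 20.3 and 28.4 CPM in WT DMSO and 3.37, 3.35 and 2.57 CPM in KO sorafenib (-2.88 ± 0.22).

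Among 16 YAP and TEAD targets, 10 fell and 2 rose, with a median of -0.83. CCN2, a secreted matricellular protein, measured 360.4, 389 and 466 CPM in WT DMSO and 45.4, 35.2 and 29.3 CPM in KO sorafenib (-3.47 ± 0.17), and CCN1 measured 19.2, 19.7 and 33.9 CPM in WT DMSO and 1.599, 1.47 and 1.58 CPM in KO sorafenib (-3.97 ± 0.26). ANKRD1 and CRIM1 fell (-3.92 ± 0.28 and -3.47 ± 0.22), while LATS2 and ARHGEF17, picked out after their values were seen, rose by 0.31 and 0.80. Of 15 AP-1 and immediate early genes, several of which ERK is known to induce, 10 fell and 2 rose, with a median of -1.06. MAFG and KLF10 fell (-1.68 ± 0.13 and -1.80 ± 0.09), and JUND rose by 0.89 ± 0.08, as did JUN, picked out after its value was seen (0.63).

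NF-kB targets, chemokines and acute-phase genes fell in 8 of 16 cases and rose in 2, with a median of -0.89. Besides CCL20, ICAM1, the adhesion molecule for leukocytes, measured 115, 131 and 165 CPM in WT DMSO and 13.2, 11.5 and 9.28 CPM in KO sorafenib (-3.59 ± 0.19), and TNFAIP3, the feedback inhibitor A20, fell (-1.19 ± 0.08). HAMP, which encodes the iron hormone hepcidin, measured 20.3, 14.7 and 19.1 CPM in WT DMSO and 308, 269.5 and 259 CPM in KO sorafenib (3.95 ± 0.24), and SAA4, picked out after its value was seen, rose by 0.57. The CCL20 promoter is printed because NF-kB is known to induce this gene, which had the steepest fall of the list. It is the 250 bases before the RefSeq start (chr2:227813592-227813841, plus strand, GRCh38.p14), with the kappaB motif (GGG, any 2 bases, then TTTCC) on either strand in capitals.
CCL20: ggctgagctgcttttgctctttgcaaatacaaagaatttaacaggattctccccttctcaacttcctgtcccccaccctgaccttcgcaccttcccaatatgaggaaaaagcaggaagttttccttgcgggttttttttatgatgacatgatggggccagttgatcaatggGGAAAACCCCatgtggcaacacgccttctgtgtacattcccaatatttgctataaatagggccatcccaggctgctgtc
The match began 79 bases before the start. Of 14 promoters of the list, 6 (42.9%) held a match, against 1.97% of tested genes, 2.22% of those called lower and 2.04% of those called higher.

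WNT targets gave 5 falls and 2 rises among 18 genes, with a median of 0.01. LGR5, a receptor of stem and pericentral cells, measured 109, 122 and 120.2 CPM in WT DMSO and 7.32, 7.43 and 5.38 CPM in KO sorafenib (-4.12 ± 0.13; adjusted p = 2.34e-10), and DKK1, a secreted WNT inhibitor, measured 116, 98.9 and 107 CPM in WT DMSO and 12.9, 11.6 and 9.09 CPM in KO sorafenib (-3.26 ± 0.13). NKD1 fell (-1.19 ± 0.09), DKK4 (-2.86), and APCDD1 also fell. GLUL, named above with the urea cycle, rose by 1.46, and TCF7 by 0.54. DKK4, APCDD1 and TCF7 were picked out after their values were seen, and 4 genes were higher without KO sorafenib replicate 3. None of 11 Notch genes rose and 5 fell (1 and 3 with the length offset), with a median of -1.27. HEY1, a repressor induced by Notch, measured 9.52, 10.3 and 10.2 CPM in WT DMSO and 0.968, 0.688 and 0.494 CPM in KO sorafenib (-3.78 ± 0.23), JAG1, a ligand, fell (-1.27 ± 0.19) and NRARP (-2.77 ± 0.68). HES4 fell (-0.49 ± 0.15), a call lost without WT DMSO replicate 1 (-0.42; adjusted p = 0.0544), without KO sorafenib replicate 2 (-0.44; adjusted p = 0.0547) and with the length offset (-0.25; adjusted p = 0.355). DLL4, picked out after its value was seen, fell (-1.98). It was low in both groups, at 0.342, 0.843 and 0.487 CPM in WT DMSO and 0.253, 0.0459 and 0.0988 CPM in KO sorafenib. The number of Notch genes lower was 3 without KO sorafenib replicate 2 or with the stricter filter (a mean of at least 5 CPM in a group).

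In TGF-beta and activin signalling, 10 of 26 genes rose and 6 fell. FST, the activin trap follistatin, measured 259.5, 279 and 286 CPM in WT DMSO and 24.8, 22.9 and 20.4 CPM in KO sorafenib (-3.60 ± 0.11; adjusted p = 2.23e-10). TGFBR3, betaglycan, measured 367, 434 and 435 CPM in WT DMSO and 89.8, 71.8 and 55.8 CPM in KO sorafenib (-2.51 ± 0.18), while ID2 and the inhibitor SMAD7 rose by 1.97 ± 0.16 and 1.14 ± 0.09. The number that rose was 6 without WT DMSO replicate 1 or 3 or KO sorafenib replicate 1, and 5 without KO sorafenib replicate 2. Of 21 interferon-stimulated genes, 13 rose (8 without WT DMSO replicate 1) and 5 fell. IFIT1, which binds viral RNA, measured 3.799, 3.04 and 2.59 CPM in WT DMSO and 18.5, 22.7 and 21.1 CPM in KO sorafenib (2.72 ± 0.16), and IFITM3 measured 54.1, 41.1 and 44.7 CPM in WT DMSO and 16.2, 12.4 and 12.1 CPM in KO sorafenib (-1.78 ± 0.16). IFITM2 and OAS3 fell (-2.81 ± 0.27 and -0.91 ± 0.09); the first has close paralogs, so its level is uncertain. OAS1, picked out after its value was seen, fell (-1.76).

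Of 15 replication-dependent histone genes, 6 rose and none fell, with a median of 0.63. H2BC21 rose by 1.37 ± 0.16, H3C10 by 1.46 ± 0.20, H2AC19 by 1.19 ± 0.18 and H2AC6 by 0.63 ± 0.12. Most such transcripts lack a poly(A) tail and histone copies are alike, so in poly(A) libraries these values cover only the tailed part and their assignment is uncertain. Among 27 BAF and PBAF subunits, 5 rose (3 without WT DMSO replicate 2 or KO sorafenib replicate 1) and 8 fell (5 without WT DMSO replicate 3, or with the length offset), ARID1B among the latter. SMARCA2, an ATPase of the complex, measured 38.5, 45.5 and 37.9 CPM in WT DMSO and 19.7, 19.1 and 21.9 CPM in KO sorafenib (-1.01 ± 0.10), and KO DMSO held 18.2, 14.96 and 15.9 CPM. The core subunit SMARCC1 fell (-0.62 ± 0.08), and SMARCD3 measured 0.171, 0.1404 and 0.1499 CPM in WT DMSO and 1.18, 1.33 and 1.53 CPM in KO sorafenib (3.08 ± 0.45). The other 4 that rose, BCL7A, BICRA, DPF2 and SS18L1, did so by 0.29, 0.49, 0.28 and 0.66 and were picked out after their values were seen.

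**Figure D3:**
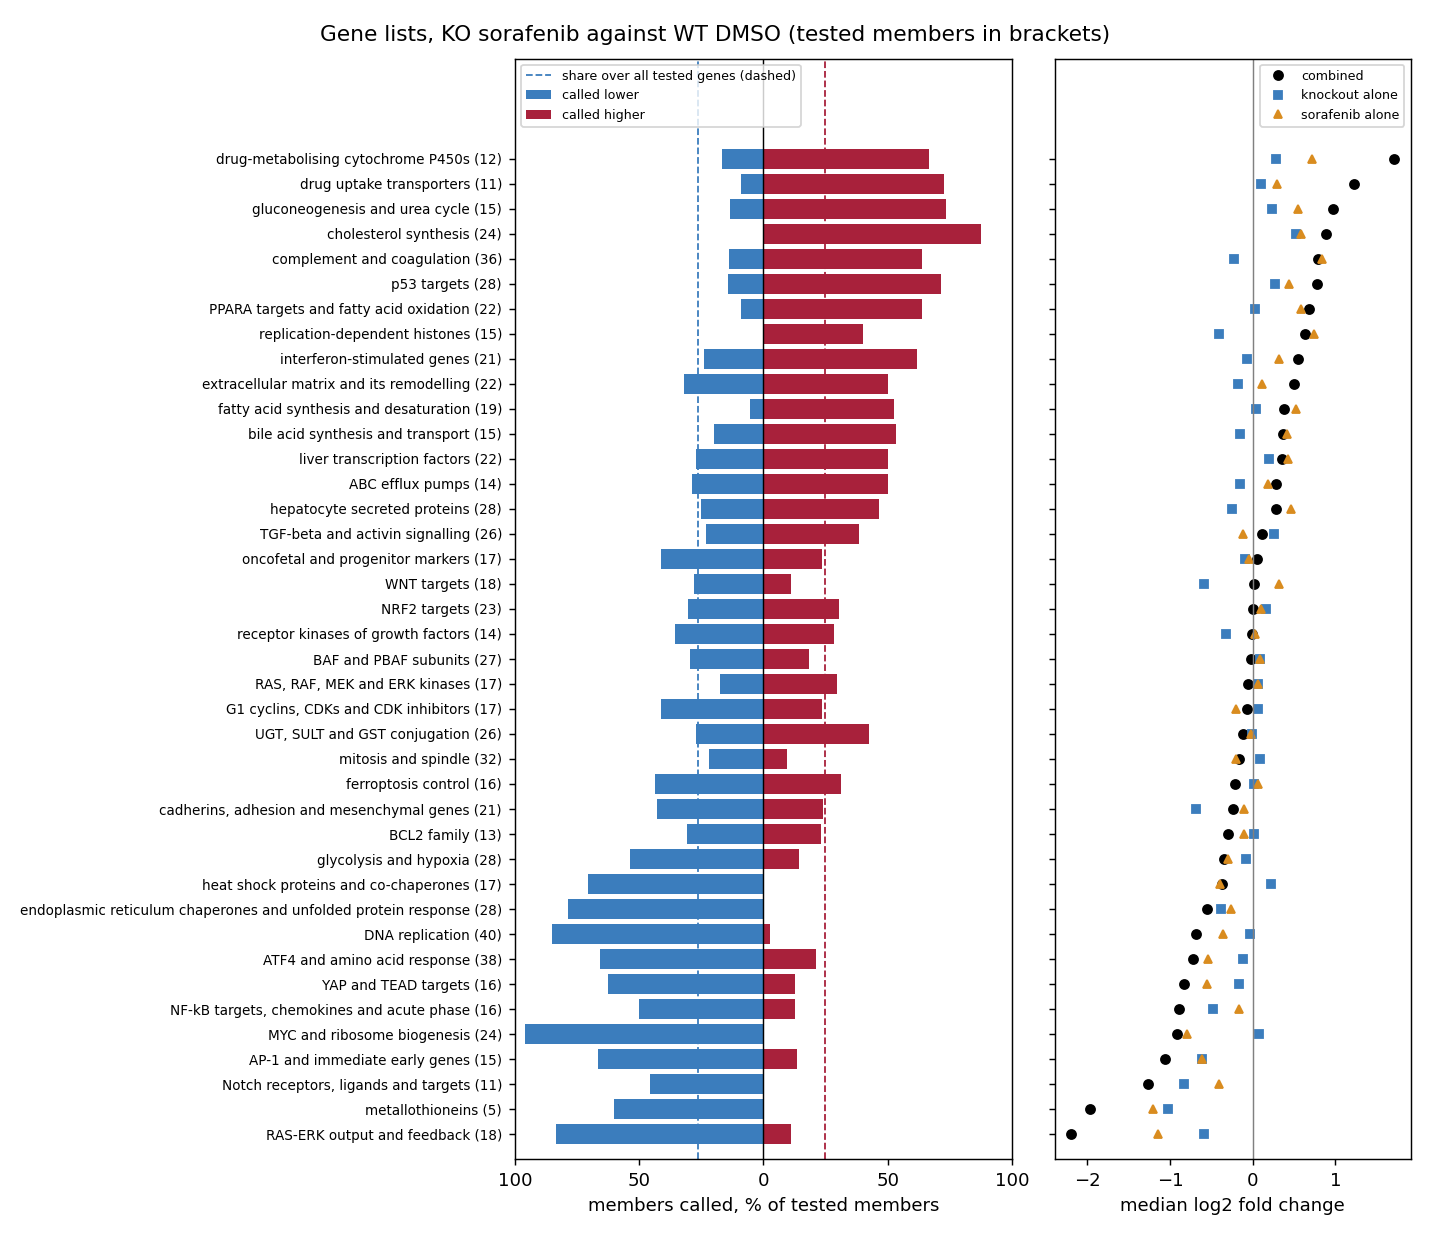
For each of 40 gene lists (rows, with the number of tested members), the left panel gives the percentage of tested members called lower (blue) and higher (red) in KO sorafenib against WT DMSO, with dashed lines at 26.5% and 24.9% of all tested genes. The right panel gives the median log2 fold change for KO sorafenib (circles), KO DMSO (squares) and WT sorafenib (triangles), all against WT DMSO; the RAS-ERK list is lowest at -2.19 and the cytochrome P450 list highest at 1.71.

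A set of genes moved in the same direction with each single change. They were taken by the size of the single changes, so their values are given side by side as a description. PLEK2 rose by 3.10 ± 0.32 in the knockout alone, by 3.15 ± 0.32 with sorafenib alone and by 6.57 ± 0.29 with both. SSTR3, a somatostatin receptor, rose by 2.35 ± 0.28, 2.52 ± 0.28 and 4.63 ± 0.29 in the same order. For CCL20 the values were -1.82 ± 0.16, -3.84 ± 0.17 and -6.74 ± 0.21. These 3 genes thus stood farthest from the controls when both changes were present. PDGFRB gave -2.23 ± 0.27, -2.33 ± 0.27 and -3.87 ± 0.30, and ICAM1 gave -1.88 ± 0.17, -1.91 ± 0.17 and -3.59 ± 0.19. ANGPTL1, a secreted angiopoietin-like protein, gave -2.71 ± 0.24, -2.43 ± 0.24 and -4.20 ± 0.27. GSTA1, GSTA2, DAO, ENTPD8, SLC2A1 and HEY1 also belonged to this set.

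Other genes moved in opposite directions with the single changes and left no called combined change. They were chosen for a combined change that was under 0.5 on the log2 scale and not called. ITIH4, an acute-phase protein of the liver, measured 1.81, 1.498 and 1.31 CPM in WT DMSO and 2.02, 1.83 and 0.839 CPM in KO sorafenib, 0.475, 0.1797 and 0.0962 CPM in KO DMSO and 10.8, 12.1 and 9.08 CPM in WT sorafenib. PGC, the precursor of a stomach protease, measured 262, 284 and 298 CPM in WT DMSO and 516, 351 and 266 CPM in KO sorafenib, 126, 134 and 100.0 CPM in KO DMSO and 604, 733 and 584 CPM in WT sorafenib. SLC35G2 went the other way round, with 6.195, 5.71 and 6.45 CPM in WT DMSO, 15.4, 16.7 and 16.1 CPM in KO DMSO, 2.51, 1.58 and 2.76 CPM in WT sorafenib and 7.15, 9.36 and 6.32 CPM in KO sorafenib. Their combined changes were 0.03 ± 0.36, 0.42 ± 0.20 and 0.31 ± 0.18. Without KO sorafenib replicate 3 PGC was called higher (0.62; adjusted p = 0.00796). FGA, SOWAHA, UNC5CL, XPNPEP2 and EID1 completed this set, with combined changes of -0.23, 0.10, 0.25, 0.27 and -0.13.

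**Figure D4:**
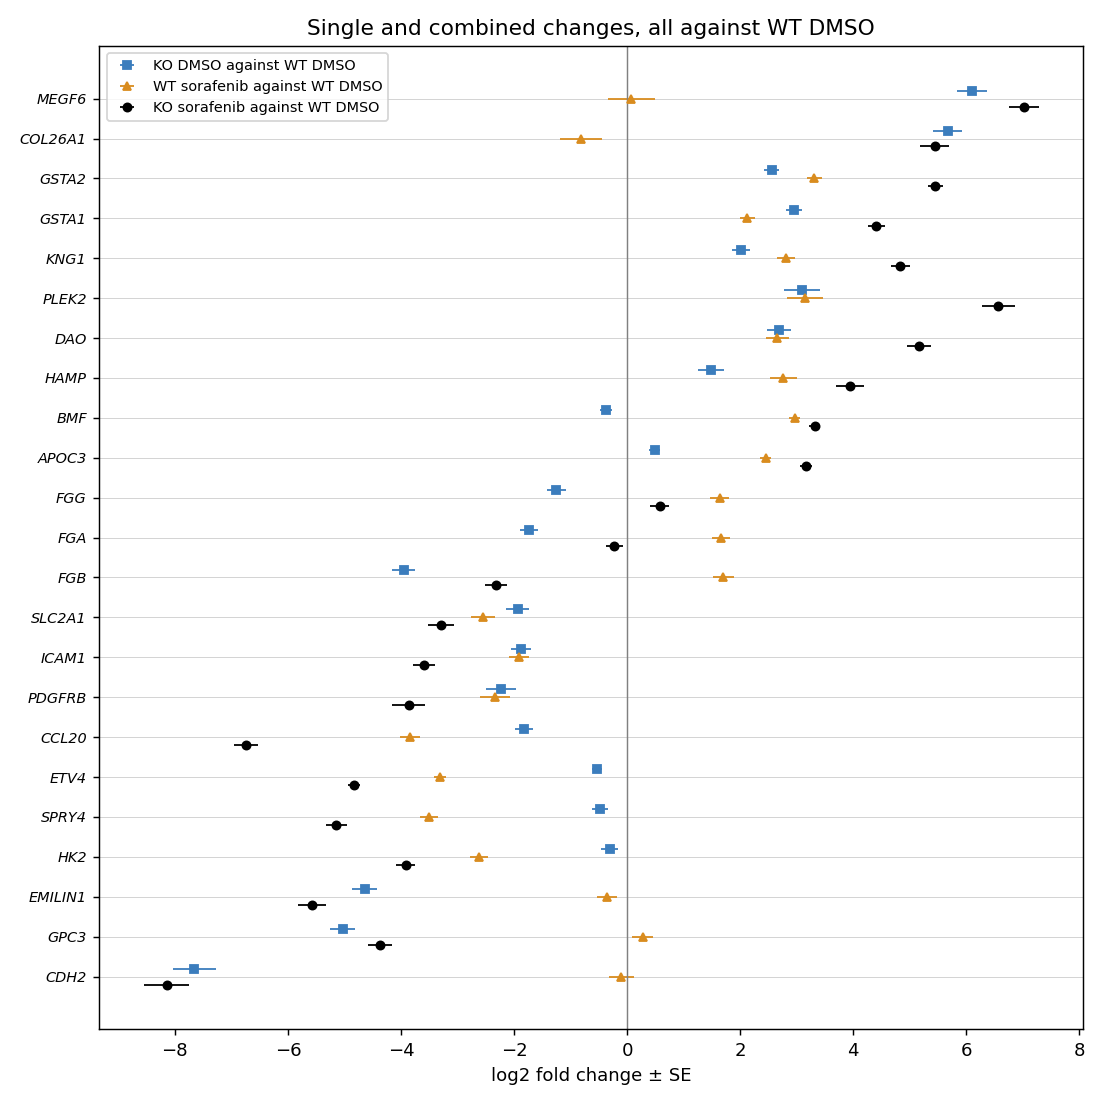
Log2 fold change ± SE (horizontal axis) of 23 genes (rows) in KO DMSO (squares), WT sorafenib (triangles) and KO sorafenib (circles), each against WT DMSO. CDH2 and GPC3 carry the knockout change, SPRY4, ETV4 and HK2 mostly the sorafenib change, and the circles of GSTA2, KNG1, PLEK2 and CCL20 lie beyond both single changes.

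On the log2 scale the combined change differed from the sum of the single changes in 107 of 12821 genes (0.835%), 48 above the sum (0.374%) and 59 below it (0.46%), by the interaction term of the same fit. At an unadjusted p under 0.05 the number was 1961. The count depended on which library was left out. It was 73, 13 and 17 without WT DMSO replicates 1, 2 and 3. Without KO sorafenib replicates 1, 2 and 3 it was 22, 12 and 138. It was 584 by DESeq2 and 2 with the length offset. ETV4 fell further than the sum (-0.99 ± 0.14; adjusted p = 0.0136), and so did ETV5 (-0.74 ± 0.12), LGR5 (-0.999 ± 0.17) and MAFF, a small MAF protein (-1.57 ± 0.31; adjusted p = 0.0399). MAFF measured 9.04, 9.69 and 10.8 CPM in WT DMSO and 1.18, 0.642 and 0.593 CPM in KO sorafenib. SSUH2 measured 31.4, 29.1 and 28.7 CPM in WT DMSO and 8.08, 7.93 and 7.901 CPM in KO sorafenib, 23.4, 23.9 and 27.1 CPM in KO DMSO and 21.9, 25.3 and 25.2 CPM in WT sorafenib, and its interaction was -1.33 ± 0.13 (adjusted p = 0.00185). The KO sorafenib libraries of SSUH2 lay below the 9 others. CCDC150 rose in that group, with 7.05, 7.303 and 7.68 CPM in WT DMSO and 22.5, 22.3 and 27.3 CPM in KO sorafenib, 8.94, 9.299 and 9.57 CPM in KO DMSO and 7.498, 6.08 and 7.03 CPM in WT sorafenib (interaction 1.47 ± 0.17; adjusted p = 0.0034).

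HEY1 lay above the sum (2.12 ± 0.32; adjusted p = 0.0181). It held 1.85, 1.66 and 2.16 CPM in KO DMSO and 0.861, 0.814 and 0.963 CPM in WT sorafenib, so each single change alone already lowered it. MRAS, a relative of RAS, rose with each single change and measured 3.56, 2.43 and 2.96 CPM in WT DMSO and 18.5, 20.1 and 19.4 CPM in KO sorafenib; it lay below the sum (-1.25 ± 0.18). CPLX2, a regulator of vesicle fusion, measured 105, 132 and 164 CPM in WT DMSO and 54.04, 57.97 and 51.9 CPM in KO sorafenib but 365, 331 and 293 CPM in KO DMSO (interaction -1.20 ± 0.21). PPM1L, a protein phosphatase, measured 1.57, 1.78 and 1.69 CPM in WT DMSO and 35.02, 28.8 and 26.6 CPM in KO sorafenib (4.17 ± 0.21), with an interaction of 1.72 ± 0.32. BMF lay above the sum by 0.72 ± 0.13 (adjusted p = 0.0315), and UHRF1 and MCM7 below it (-0.60 ± 0.12 and -0.52 ± 0.11). These calls were not stable: of 12 alternative fits, BMF was called in 6 (highest adjusted p = 0.225), UHRF1 in 5 (0.208) and MCM7 in 4 (0.206). Of the others given here, SSUH2 was called in all 12, ETV4, CCDC150 and MRAS in 11, HEY1 in 8, ETV5, LGR5 and CPLX2 in 7, PPM1L in 6 and MAFF in 5.

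By chromosome, the median log2 fold change ran from -0.14 (chromosome 5, 559 tested genes) to 0.16 (chromosome 21, 130 tested genes).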

How the data were processed

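Per the file headers, the authors deposited a Salmon table per library with an estimated count for each transcript, its effective length and its TPM; the TPM were not tested here. The submitters' processing notes name Salmon, without a version, DESeq2 1.46.0 and GRCh38; the design text states Ensembl 109, but whether the files were made with that release was not settled, since 11923 transcripts were not in the annotation used here, and bias or strand settings are not given in the sources used here. Estimated counts were summed to 35810 genes by unversioned transcript identifier (165533 of 177456 transcripts matched GENCODE release 44, on GRCh38; the others held 2.87% to 3.20% of the counts) and rounded. All 12 libraries entered 1 quasi-likelihood fit of edgeR 4.0.16 (R 4.3.3; robust, TMM, filterByExpr, 4 group means, no covariate), which kept 12821 genes, with a common biological coefficient of variation of 0.152. The SE was derived from the log2 fold change and its F statistic (size over root F), and CPM use TMM library sizes. PCR copies were not separated, so the floor of 3 counts covers counting error only. Promoters are from RefSeq. The fit was tested on simulated counts. It recovered 34% of 50 rises of 1.5-fold and 100% of 50 rises of 2-fold, with 9 false calls. A gene that was not called can thus still differ by 1.5-fold. The simulation changed only a small part of the genes and gave all genes the common coefficient of variation. The data differ in both respects, so these rates need not hold for the comparison here. Alternatives were RLE size factors, DESeq2 1.42.0, other filters, a replicate block and a transcript length offset (the mean effective length of a gene in each library). Further alternatives were only the 6 libraries of WT DMSO and KO sorafenib, and each of these 6 left out in turn. No library of WT sorafenib or KO DMSO was left out.

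Genes were named by this rule: ARID1B; the 14 greatest rises and 14 greatest falls (higher group averaging 5 CPM or more, no overlap, even replicates); 6 rises and 6 falls shared by both single changes; 8 that offset; 5 and 5 with the largest interaction; the 4 called members of each list with the smallest adjusted p; and 20 fixed genes. Part of these are printed, and a few are not reported here. The members and lists were chosen with earlier results of these data known, so no list was set-tested.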

Additional observations from a re-analysis of the deposited data

Results flagged for a closer look

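For these named genes the interaction term passed the threshold in the fit of all 12 libraries, though for most of them not under every alternative. Values are on the log2 scale, the combined change minus the sum of the single changes. Above the sum lay HEY1 (2.12), PPM1L (1.72), CCDC150 (1.47), FAM13A (1.45), ZNF117 (1.41), TGFBR3 (1.24), SAT1 (1.18), CYP3A7 (0.93) and BMF (0.72). Below it lay the small MAF gene MAFF (-1.57), SSUH2 (-1.33), MRAS (-1.25), CPLX2 (-1.20), the ERK phosphatase DUSP7 (-1.04), LGR5 (-0.9991), ETV4 (-0.99), DKK1 (-0.91), ETV5 (-0.74), HMOX1 (-0.71), CEBPA (-0.68), TNFAIP3 (-0.65), GPAM (-0.60), UHRF1 (-0.60), NOLC1 (-0.58), FKBP4 (-0.57), SPRED2 (-0.57), DDX21 (-0.56) and MCM7 (-0.52). Of 12 alternative fits, SSUH2 was called in all 12, and CCDC150, ZNF117, MRAS, ETV4 and SAT1 in 11. HEY1 and CEBPA were called in 8, and CPLX2, ETV5, LGR5, DKK1 and TNFAIP3 in 7. PPM1L, BMF, HMOX1, GPAM and NOLC1 were called in 6, and FAM13A, MAFF, DUSP7, UHRF1 and TGFBR3 in 5. SPRED2, MCM7, FKBP4 and DDX21 were called in 4 and CYP3A7 in 3. Over the 27 genes other than SSUH2, the highest adjusted p of a gene ran from 0.0576 to 0.526. The zinc finger gene ZNF117 measured 18.6, 19.8 and 22.5 CPM in WT DMSO and 10.6, 12.1 and 13.1 CPM in KO sorafenib, and FAM13A measured 4.62, 2.86 and 4.91 CPM in WT DMSO and 5.18, 6.01 and 7.26 CPM in KO sorafenib. The combined change of FAM13A (0.57 ± 0.20) lost its call in 5 of the alternatives, with adjusted p from 0.062 to 0.128.

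Transcripts with no gene match entered no gene sum; 2219 of them were tested separately, and 88 were called between KO sorafenib and WT DMSO (36 higher and 52 lower).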

How the results depend on the processing

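The combined comparison called 6595 genes, and 4981 to 6822 under every alternative (5785 to 6214 with a library left out). The interaction called 107 genes, but 584 by DESeq2, 19 with the replicate block, 2 with the length offset and 12 to 138 with a library left out. With the length offset the knockout alone called 2190 genes instead of 3563 and sorafenib alone 2870 instead of 4543. With a library left out these were 2529 to 3851 and 3742 to 4762. Only libraries of WT DMSO and KO sorafenib were left out, so these ranges do not cover the loss of a WT sorafenib or KO DMSO library. The coefficient of variation rose from 0.152 to 0.231 with that offset. Under the stricter filter, which tested 10449 instead of 12821 genes, 601 instead of 940 genes were lower by over 2-fold. The causes of these shifts were not tested. No named gene changed direction between the main fit and an alternative when it was called in either. Changes of sign in genes called in neither fit were not counted. The deviations of same-numbered libraries of the 2 groups from their group means had correlations of -0.163, -0.014 and -0.125. Those of differently numbered libraries ran from -0.072 to 0.183. So few values cannot settle whether the numbers pair the libraries. With the replicate block the combined comparison called 6455 genes. At 20135596 to 29398257 counts per library, genes with few counts carry wide errors.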
